A study of Mus musculus with 12 samples.

Results

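C-type lectin receptors are membrane proteins of myeloid cells that bind sugars, lipids and products of dying cells. Chromatin accessibility was described at the loci of 8 of them in macrophages sorted from mouse brain tumours: Clec7a, Clec12a, Clec4a1, Clec4a2, Clec4a3, Clec4d, Clec4e and Clec4n. All 8 lie on chromosome 6, Clec7a and Clec12a in one cluster and the 6 Clec4 genes in another. Members were the counted regions (mm10) that overlap the span of one of these genes or the 5 kb on either side, each counted once, and they number 36 of the 117835 regions measured. The genes are 8 of the 21627 protein-coding genes on the chromosomes covered.

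The assay was ATAC-seq. Tn5 transposase cuts and tags DNA where it is free of nucleosomes, so that more counts mean a more open region. All tumours shared 1 genotype, loss of Ink4a/Arf with PDGFB expression, and the series' design text says that PDGFB was expressed in Nestin-positive progenitors. The 4 groups of 3 libraries each (12 in all) were monocyte-derived macrophages that had not taken up lipid (MDM), lipid-laden MDM (LL-MDM), microglia without lipid load (MG) and lipid-laden microglia (LL-MG). MDM derive from circulating monocytes, and microglia are the macrophages that the brain itself holds. Groups were set by library name, and for 8 of the 12 samples the title gives another group. No age or sex of the animals, no gate of the sort and no measure of lipid load is given in the sources used here. The titles number the mice, but because titles and library names conflict these numbers did not enter the main test. P-values therefore measure the spread between these libraries, which may share animals.

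Region totals ran from 1162969 counts (an LL-MDM library) to 18938222 (an MDM library). Sall1, a transcription factor that marks microglia, was at 37.8 to 71.4 CPM (counts scaled to the library total) in MG and 63.4 to 85.0 in LL-MG, against 0.471 to 1.02 in MDM and 5.94 to 11.5 in LL-MDM. Ccr2, a chemokine receptor of monocytes, was at 21.8 to 26.4 CPM in MDM, 6.56 to 10.3 in LL-MDM and 2.98 to 5.53 in LL-MG. In the MG libraries 1, 2 and 3 Ccr2 was at 9.86, 40.6 and 27.1 CPM, so that MG 2 and MG 3 were above every MDM library and go against their label for this gene. The summed CPM of 9 microglia markers was 499.6 in MG 1, 270.5 in MG 2 and 380.8 in MG 3, against 230.1 to 252.2 in MDM and 479.2 to 537.9 in LL-MG. Where leaving out MG 2 and MG 3 changed a call or moved a member's value by over 1.5 times, the value with MG 1 alone is in most cases given beside it. With MG 1 alone, the locus difference of MG from MDM was smaller at some loci than with all 3 MG libraries. It was -0.40 at Clec4a1 (-0.94 with all 3), -0.03 at Clec4a3 (-0.47) and 0.01 at Clec4a2 (-0.39). It was larger at Clec4d (-2.0, against -0.66), Clec4e (-2.23, against -1.11) and Clec12a (-1.95, against -1.69). At Clec7a (-1.82, against -1.83) and Clec4n (-2.52, against -2.62) it changed little. The gene lists were tested with all 3 MG libraries only.

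The 8 receptors fall into activating and inhibitory kinds. Clec7a (Dectin-1, a receptor for beta-glucan) signals through its own tail and the kinase Syk. Clec4n (Dectin-2, a receptor for fungal mannan), Clec4d (MCL) and Clec4e (Mincle) signal through the Fc receptor gamma chain, Syk and Card9. Mincle binds glycolipids and a protein of dead cells. Clec12a (MICL, a receptor for uric acid crystals) and Clec4a2 (DCIR1) carry an inhibitory motif that recruits the phosphatases encoded by Ptpn6 and Ptpn11. Clec4a1 (DCIR4) and Clec4a3 (DCIR3) are close relatives of Clec4a2 in sequence, and the handling of reads that match several such copies is not stated, so values of these 3 genes may mix.

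Start-site windows from RefSeq (GRCm38.p6, the assembly of mm10; 250 bases before the start to 50 after it) matched 7 of the 8 genes, and for Clec4n none is given. The first entry was taken for Clec7a and Clec4a3, which have 2 each. Below are 4 of them, each 5′ to 3′ on the gene's strand, chosen because the results turn on the regions that cover them. Capitals mark matches to 6 motifs searched on both strands: PU.1 (GAGGAAGT), AP-1 (TGANTCA), C/EBP (TTGCNNAA), IRF (GAAANNGAA), RUNX (TGTGGTT) and NF-kB (GGGANTTTC).
Clec7a: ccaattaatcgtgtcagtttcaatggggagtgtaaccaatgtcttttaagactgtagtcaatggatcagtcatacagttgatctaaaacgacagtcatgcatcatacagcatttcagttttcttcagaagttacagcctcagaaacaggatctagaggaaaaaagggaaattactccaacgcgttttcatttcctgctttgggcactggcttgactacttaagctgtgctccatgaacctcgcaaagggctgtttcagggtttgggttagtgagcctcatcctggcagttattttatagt
Clec12a: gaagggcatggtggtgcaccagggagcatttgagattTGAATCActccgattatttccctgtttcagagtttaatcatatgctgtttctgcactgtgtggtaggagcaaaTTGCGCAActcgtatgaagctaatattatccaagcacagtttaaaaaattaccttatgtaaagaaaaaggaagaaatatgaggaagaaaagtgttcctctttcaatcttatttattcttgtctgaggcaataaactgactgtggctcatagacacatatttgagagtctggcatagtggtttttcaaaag
Clec4e: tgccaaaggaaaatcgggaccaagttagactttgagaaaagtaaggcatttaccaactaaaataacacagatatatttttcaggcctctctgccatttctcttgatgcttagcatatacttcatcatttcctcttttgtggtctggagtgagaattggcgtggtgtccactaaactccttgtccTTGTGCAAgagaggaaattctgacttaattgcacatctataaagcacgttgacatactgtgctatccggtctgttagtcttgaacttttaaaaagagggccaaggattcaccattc
Clec4a3: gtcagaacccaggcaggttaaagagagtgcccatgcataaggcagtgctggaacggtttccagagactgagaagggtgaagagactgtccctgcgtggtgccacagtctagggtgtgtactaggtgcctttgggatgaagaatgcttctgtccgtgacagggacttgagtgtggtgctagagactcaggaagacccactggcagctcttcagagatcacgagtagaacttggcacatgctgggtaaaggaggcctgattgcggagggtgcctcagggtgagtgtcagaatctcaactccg

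The Clec7a window is chr6:129472730-129473029 on the minus strand, and all of its 300 bases lie in a counted region. The Clec12a window is chr6:129349994-129350293 on the plus strand, also covered over 300 bases. The Clec4e window is chr6:123289822-123290121 on the minus strand, covered over 256 bases, and the Clec4a3 window is chr6:122952265-122952564 on the plus strand, covered over 262. The Clec12a window holds an AP-1 match 213 bases before the start and a C/EBP match 140 bases before it. The Clec4e window holds a C/EBP match 66 bases before the start, on the opposite strand. None of the 6 motifs was found in the Clec7a and Clec4a3 windows. Of 32851 windows in the table, 7.81% hold the AP-1 letters and 10.8% the C/EBP letters. The shares are 3.2% for PU.1, 8.56% for IRF, 5.27% for RUNX and 1.11% for NF-kB. In the 3 windows not printed, Clec4a1 holds a RUNX match, Clec4a2 an AP-1 match and Clec4d an IRF match. These matches describe letters and show no binding.

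The 36 regions were 15 to 663 bp wide, and 2 of them lie also within 5 kb of Olr1 and hold 24.3% of the Clec7a counts. The depositors' region identifiers name the groups in which a peak was called. They name MDM for 35 of the 36, MG for 14, LL-MDM for 11 and LL-MG for 9, where 89.3%, 51.8%, 42.8% and 36.2% of all regions name these groups. MDM alone is named for 22 (61.1%, against 37.8% of all regions), and all 4 groups are named for 7, beside 27.6% of all regions. The MDM libraries were also among the deepest, and the part of depth in these names was not tested. Enough counts for testing remained in 24 of the 36 regions, and the other 12 averaged under 5 CPM in each group. Counts summed over its regions gave each gene 1 locus value, and all 8 loci were tested.

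**Figure D1:**
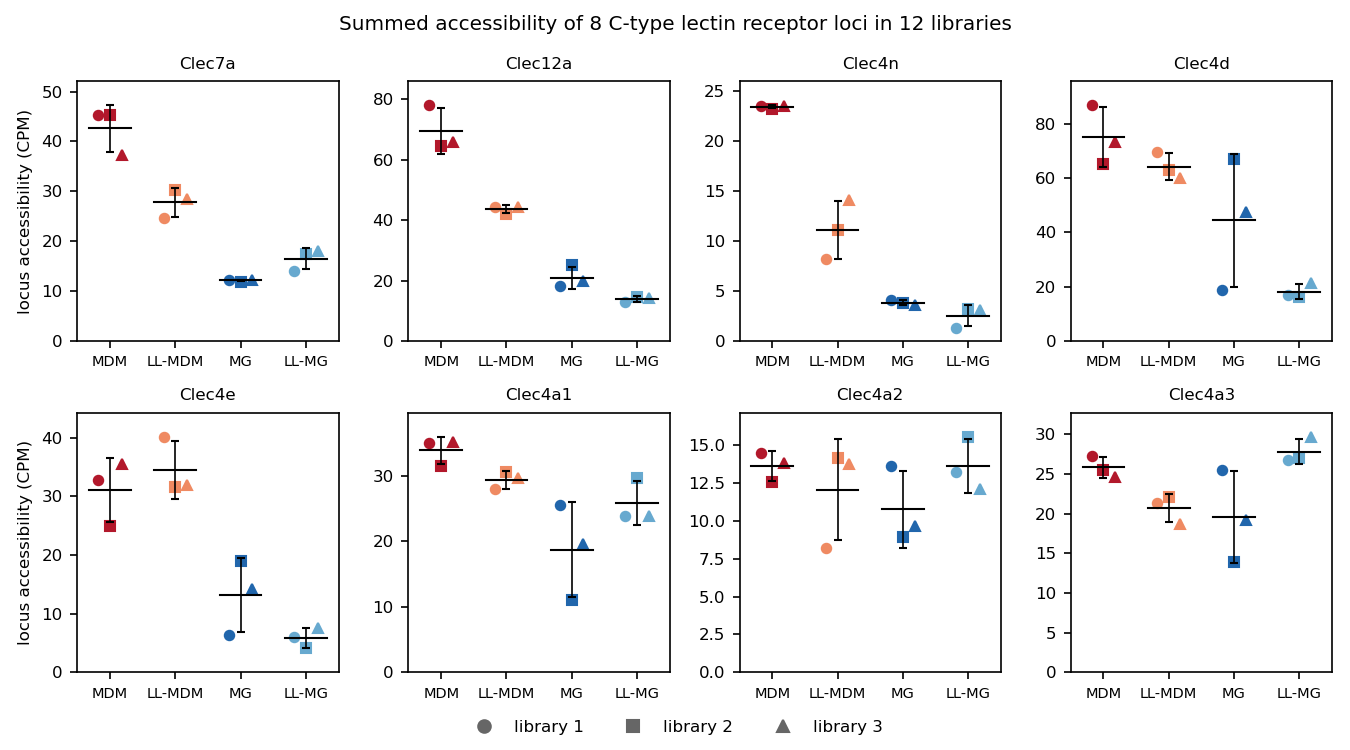
Summed accessibility of each receptor locus in CPM (vertical axes start at 0), with 1 point per library, the mean as a line and the SD as a bar (n = 3 per group). Clec7a, Clec12a and Clec4n are highest in the MDM libraries, Clec4d and Clec4e are near the LL-MG level in MG 1 only, and the means of the 3 Clec4a loci are lowest in MG, not in LL-MG.

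Set per kb of region sequence, the loci were ordered differently in the 4 groups. In MDM the mean level was 47.3 CPM per kb for Clec4d, 39.5 for Clec12a, 39.4 for Clec4a1, 39.3 for Clec4n, 36.3 for Clec4e and 36.2 for Clec7a. Clec4a2 was at 24.1 and Clec4a3 at 22.9 in the same group. In LL-MG the 3 Clec4a genes led, with 30.0 CPM per kb for Clec4a1, 24.6 for Clec4a3 and 24.1 for Clec4a2. Clec7a was then at 14.0, Clec4d at 11.4, Clec12a at 7.88, Clec4e at 6.88 and Clec4n at 4.24 CPM per kb. The genes at the top in MDM were thus not those at the top in LL-MG.

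Microglia without lipid load were less open than MDM at most of the tested regions. Of the 36 regions 22 name MDM alone, beside 37.8% of all regions, and these entered the set only through MDM. A lower count in MG was favoured there in advance. The same holds for loci that sum such regions and for LL-MDM against MDM. The counts of lower members are thus a description and no independent support for a lineage difference. Without lipid load (MG against MDM), 17 of the 24 tested regions were lower in MG and 1 was higher (edgeR, adjusted p under 0.05), where 24.9% of all 77737 tested regions were lower and 26.8% higher. The median log2 fold change was -1.28 over the member regions and 0.07 over all regions. Of the 8 loci 6 were lower and none higher, where 21.2% of 15548 gene loci were lower and 19.8% higher. With the groups set by sample title in place of library name, no member region or locus passed in this comparison (edgeR, 0 of 24 and 0 of 8, and 0 of each at an unadjusted p under 0.05). By title, MG would be MDM 2, LL-MDM 1 and LL-MDM 3, with Sall1 at 1.02, 11.5 and 5.94 CPM. MDM would be MDM 1, MDM 3 and LL-MDM 2. That fit thus sets libraries named for MDM against each other and cannot show a difference between the lineages named here. A lower count can mean fewer cells with the region open or fewer insertions in each cell, and the 2 cannot be told apart here.

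Among lipid-laden cells (LL-MG against LL-MDM) the direction was the same. In LL-MG 11 of 24 regions were lower and 1 higher, beside 11.2% and 10.3% of all regions. Of the 8 loci 5 were lower and none higher, beside 8.32% and 12% of all loci. The median locus log2 fold change was -1.22 here and -1.02 without lipid load. No library enters both comparisons, but the same regions do, and 35 of the 36 are named for MDM. The libraries may also share animals. The 2 comparisons are thus no independent support for each other.

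Lipid load changed fewer of them. In LL-MDM against MDM 6 regions were lower and 1 higher, beside 14.1% and 15.4% of all regions. The loci lower in LL-MDM were 3 of 8 and none was higher, beside 12.2% and 11.7% of all loci. In LL-MG against MG 5 regions were lower and 1 higher (8.01% and 4.21% of all regions), and 2 loci were lower and 1 higher (7.98% and 10.3% of all loci). By the titles alone each of the 3 mouse numbers covers both lipid states. With groups by library name, as tested here, only 1 of the 3 numbers does. With the mouse number as a block, LL-MDM against MDM kept 1 region and 1 locus, both Clec4n (edgeR, locus -1.67, adjusted p = 0.0236). No member passed in LL-MG against MG (edgeR, 0 of each; 8 regions and 3 loci at an unadjusted p under 0.05), where DESeq2 without a block called 5 regions and 4 loci.

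The interaction subtracts the LL-MDM minus MDM difference from the LL-MG minus MG difference. It passed the test above 0 for 1 region and below 0 for 1 (4.56% and 6.33% of all regions). Of the loci it passed above 0 for 2 and below 0 for none (5.94% and 2.78% of all loci). The region comparisons MG against MDM and LL-MDM against MDM share the MDM libraries, and MG also enters LL-MG against MG.

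**Figure D2:**
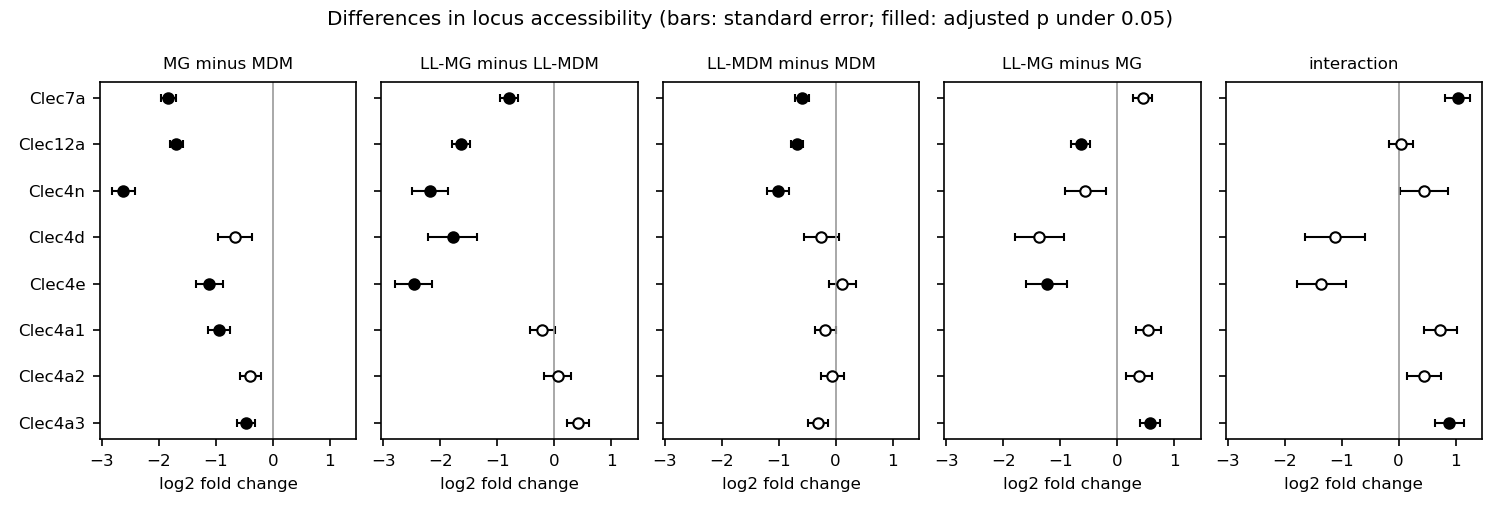
Log2 fold change of each locus (horizontal axis) in the 4 comparisons and the interaction, with the standard error as a bar; filled points passed the edgeR test at an adjusted p under 0.05. In MG minus MDM all 8 points lie below 0, from -0.39 to -2.62, while in LL-MG minus MG they lie on both sides.

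Clec7a, Dectin-1, was 1 of 2 loci, with Clec4a3, whose interaction passed the test. Its summed level was 45.3, 45.3 and 37.2 CPM in MDM 1 to 3, 24.6, 30.2 and 28.4 in LL-MDM, 12.2, 11.9 and 12.2 in MG and 14.1, 17.4 and 18.0 in LL-MG. The 4 groups did not overlap, and their order was MDM, LL-MDM, LL-MG, MG. MG was 3.55-fold below MDM (log2 fold change -1.83 ± 0.14 SE, adjusted p = 7.47e-10). LL-MG was below LL-MDM by a smaller amount (-0.79 ± 0.16, adjusted p = 0.00125). LL-MDM fell against MDM (-0.59 ± 0.13, adjusted p = 0.00206). The locus difference of LL-MG from MG was 0.45 ± 0.17 (adjusted p = 0.0703) and did not pass the test. The interaction passed it (1.04 ± 0.22, adjusted p = 0.00496) and was 1.01 with MG 1 alone (adjusted p = 0.023). With each library thinned to the total of the smallest it was 0.89 and missed the threshold (adjusted p = 0.166).

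The start-site region of Clec7a (chr6:129472556-129473029, which covers the whole window printed above) carried this pattern. It held 23.4, 24.3 and 24.3 CPM in MDM, 13.3, 14.9 and 13.7 in LL-MDM, 4.82, 4.97 and 6.34 in MG and 9.50, 9.40 and 9.44 in LL-MG. The LL-MG libraries were all above MG and below LL-MDM. It fell with lipid load in MDM (-0.75 ± 0.17, adjusted p = 0.00117) and rose with it in microglia (0.81 ± 0.24, adjusted p = 0.0286), with an interaction of 1.56 ± 0.30 (adjusted p = 0.00103). The rise in microglia did not pass without MG 2 or without any 1 of the LL-MG libraries (adjusted p up to 0.149), nor with MG 1 alone (0.97, adjusted p = 0.521) or after thinning (1.03, adjusted p = 0.128). The interaction passed in each of these fits and was 1.71 with MG 1 alone (adjusted p = 0.00432). LL-MG against LL-MDM did not pass there (-0.59 ± 0.22, adjusted p = 0.0533).

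Marker lists of other cells followed Clec7a in part only. Dendritic cells also express Clec7a, and 5 of 8 dendritic cell markers passed the test with an interaction above 0 (beside 5.94% of all loci), with a median of 0.69 over the 8. Clec9a, 1 of the 5, is also counted below among the other lectin genes of the same 2 clusters. The 8 markers summed to 725.1 to 786.0 CPM in MDM, 522.3 to 556.3 in LL-MDM, 524.2 to 595.8 in MG and 591.8 to 627.1 in LL-MG. Of 7 markers of monocyte-derived macrophages 3 passed the test with an interaction above 0, and the 7 summed to 681.6 to 714.4 CPM in MDM, 345.1 to 384.5 in LL-MDM, 278.2 to 288.2 in MG and 285.2 to 305.3 in LL-MG. The dendritic cell sums were lower in LL-MDM than in LL-MG, while Clec7a was higher in LL-MDM. Single markers were split. In LL-MG against LL-MDM 3 of the 8 were higher and 1, Flt3, was lower (-0.44), beside 12% and 8.32% of all loci. Mean Flt3 (179.7 CPM in MDM, 100.5 in LL-MDM, 61.7 in MG, 72.3 in LL-MG) had the group order of Clec7a. So did mean Ccr7 (78.9, 25.6, 12.3 and 17.9), and the other dendritic cell markers did not. In LL-MG against MG 1 of 8 dendritic cell markers was higher and none lower. Of the 7 MDM markers 1 was higher and 1 lower (10.3% and 7.98% of all loci). The interaction passed below 0 for 2 of 9 microglia markers and 1 of 6 tested neutrophil markers, with none above 0 (2.78% and 5.94% of all loci). The part of such cells in the Clec7a values was not tested.

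Other Clec7a regions did not share the pattern. The region 1.18 kb inside the gene from the start (midpoint; chr6:129471490-129471718) was lower in MG (-1.16 ± 0.30, adjusted p = 0.00155) and in LL-MG against LL-MDM (-2.61 ± 0.50, adjusted p = 0.000213). Its levels were 4.27 to 8.25 CPM in MDM, 3.54 to 6.85 in LL-MDM, 1.85 to 3.77 in MG and 0.452 to 1.45 in LL-MG, so that it was lowest where the start site was not. Of the 2 regions shared with Olr1, the nearer passed no test, and the farther (chr6:129476879-129477094) was lower in MG (-1.46 ± 0.28) and in LL-MDM (-0.80 ± 0.27, adjusted p = 0.0248).

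**Figure D3:**
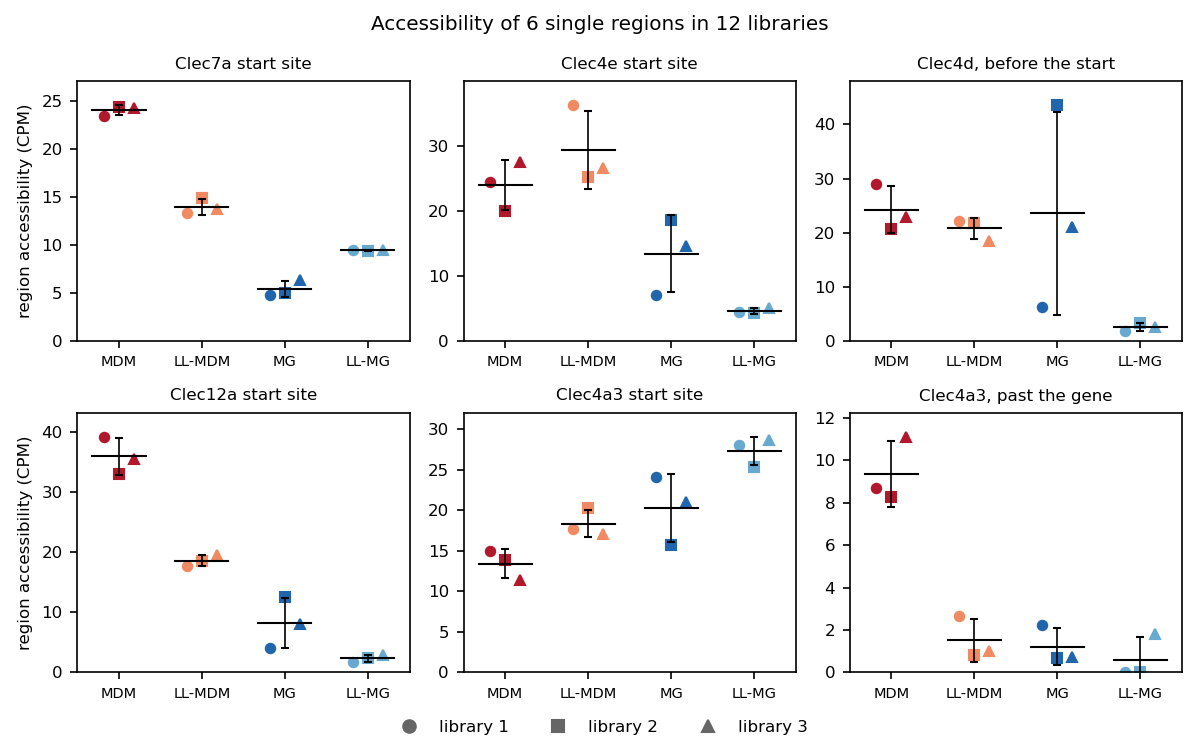
Accessibility of 6 single regions in CPM (vertical axes start at 0), 1 point per library, with the mean as a line and the SD as a bar (n = 3 per group). At the Clec7a start site LL-MG lies above MG while LL-MDM lies below MDM, and before the Clec4d start MG 2 reaches 43.6 against 6.30 in MG 1.

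Clec4n, Dectin-2, had the largest locus difference between microglia and MDM of the 8. Its level was 23.5, 23.3 and 23.6 CPM in MDM and 8.21, 11.1 and 14.1 in LL-MDM. It was 4.08, 3.79 and 3.57 in MG and 1.28, 3.20 and 3.11 in LL-MG. Every MDM library was above every LL-MDM library, and both were above all microglia. MG was 6.17-fold below MDM (-2.62 ± 0.21, adjusted p = 2.43e-09) and LL-MG 4.52-fold below LL-MDM (-2.18 ± 0.31, adjusted p = 3.08e-05). It was lower with lipid load in MDM (-1.01 ± 0.19, adjusted p = 0.000518), and the microglial difference of -0.56 ± 0.36 did not pass (adjusted p = 0.265). The LL-MG libraries held only 3, 7 and 9 counts at this locus, so that a smaller lipid-load difference was not detectable there.

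Most Clec4n counts came from 1 region inside the gene (chr6:123244111-123244603). The gene's other region averaged 2.72 CPM in MDM, 1.08 in LL-MDM, 1.27 in MG and 0.591 in LL-MG and was not tested. The first was at 21.9 to 22.7 CPM in MDM, 7.98 to 14.0 in LL-MDM, 3.09 to 3.34 in MG and 1.36 to 2.90 in LL-MG. The region fell in MG (-2.80 ± 0.23, adjusted p = 9.72e-12), in LL-MG against LL-MDM (-2.42 ± 0.33) and in LL-MDM (-0.97 ± 0.20, adjusted p = 0.000333). The identifiers name MDM, LL-MDM and MG for it.

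Clec4e and Clec4d, the neighbouring genes of Mincle and MCL, differed from the other activating receptors in 2 ways. Lipid load made no difference past the test in MDM, and the MG libraries were spread widely. Clec4e held 32.9, 25.0 and 35.5 CPM in MDM, 40.2, 31.5 and 31.9 in LL-MDM, 6.46, 18.9 and 14.3 in MG and 5.96, 4.11 and 7.60 in LL-MG. MDM and LL-MDM overlapped, and MG 1 lay within the LL-MG range. Clec4d held 86.9, 65.1 and 73.4 CPM in MDM, 69.8, 62.8 and 60.0 in LL-MDM, 18.7, 67.1 and 47.3 in MG and 17.03, 16.0 and 21.4 in LL-MG. MG 1 was again within the LL-MG range, and MG 2 was within the MDM range.

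With all libraries, Clec4e was lower in MG than in MDM (-1.11 ± 0.23, adjusted p = 0.0013) and lower in LL-MG than in LL-MDM (5.52-fold, -2.47 ± 0.33, adjusted p = 8.65e-05). It was also lower in LL-MG than in MG (-1.24 ± 0.36, adjusted p = 0.0289). Clec4d was lower in LL-MG than in LL-MDM (-1.78 ± 0.43, adjusted p = 0.0177). That call was lost without LL-MDM 2, LL-MG 1 or LL-MG 2 (adjusted p up to 0.063). For Clec4d, MG against MDM (-0.66 ± 0.30, adjusted p = 0.112) and LL-MG against MG (-1.37 ± 0.43, adjusted p = 0.0546) did not pass. Neither did the locus interaction of Clec4e (-1.36 ± 0.43, adjusted p = 0.06) or of Clec4d (-1.12 ± 0.53, adjusted p = 0.242). With MG 1 alone the interactions were -0.21 and 0.23. Clec4d in LL-MDM against MDM was -0.25 (adjusted p = 0.613), and the same difference passed with MG 1 alone (adjusted p = 0.0172).

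The lipid-load difference in microglia at both genes depended on which MG libraries entered. With MG 1 alone, Clec4e in LL-MG against MG was -0.10 (adjusted p = 0.976) and Clec4d was -0.02 (adjusted p = 0.989). The Clec4e call was also lost without MG 2, without MG 3 or without any 1 LL-MG library (adjusted p up to 0.107). Without MG 1 the same differences were -1.50 for Clec4e (adjusted p = 1.23e-05) and -1.68 for Clec4d (adjusted p = 3.16e-07). The difference from MDM went the other way: with MG 1 alone it was -2.23 for Clec4e (adjusted p = 1.33e-09) and -2.0 for Clec4d (adjusted p = 1.09e-15), and without MG 1 it was -0.84 and -0.35 (adjusted p = 3.57e-05 and 0.0245). Without MG 2 the Clec4d difference from MDM passed too, at -1.09 (adjusted p = 0.0164).

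Some marker lists of other cells were higher in MG 2 than in MG 1, and others were not. The 5 monocyte markers with regions (of 6; Chil3 had none) summed to 74.5 CPM in MG 1, 114.7 in MG 2 and 95.7 in MG 3. They summed to 121.8 to 140.1 in MDM, 98.1 to 114.7 in LL-MDM and 69.9 to 78.8 in LL-MG. Of 9 neutrophil markers 7 had regions (Ly6g and Camp had none) and summed to 162.9, 180.4 and 169.5 CPM in MG 1 to 3, 201.3 to 218.0 in MDM, 178.9 to 206.3 in LL-MDM and 146.2 to 172.4 in LL-MG. Monocytes and neutrophils both express Clec4d and Clec4e. Of 8 T and NK cell markers 6 had regions (Ncr1 and Gzma had none) and summed to 65.0, 95.9 and 72.1 CPM in MG 1 to 3, 126.2 to 131.1 in MDM, 87.8 to 108.3 in LL-MDM and 57.4 to 59.6 in LL-MG. In MG 1 to 3 dendritic cell markers went the other way (595.8, 548.1 and 524.2 CPM). B cell markers summed to 101.3, 93.08 and 103.7, and MDM markers to 278.2, 288.2 and 282.6. Within the first 2 lists Vcan (45.57, 38.15 and 39.95) and Csf3r (75.5, 44.38 and 60.56) were highest in MG 1. Ccr2, chosen after its values were seen, is in the monocyte list. The part of such cells in the spread of MG was not tested.

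Single regions of the pair showed where the libraries parted. The region before the Clec4d start (chr6:123259970-123260632) held 29.1, 20.7 and 22.9 CPM in MDM and 22.2, 21.7 and 18.5 in LL-MDM. It held 6.30, 43.6 and 21.0 in MG and 1.81, 3.29 and 2.54 in LL-MG, so that MG 2 was above every MDM library. It was lower in LL-MG than in LL-MDM (-3.02 ± 0.82, adjusted p = 0.0308) and than in MG (-3.31 ± 0.78, adjusted p = 0.0291). Neither call was kept when an LL-MG library was left out (adjusted p up to 0.0982 and 0.096). The first was also lost without any 1 LL-MDM library. With MG 1 alone LL-MG against MG was -1.31 (adjusted p = 0.426).

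The strongest Clec4d region (chr6:123265923-123266366), 4.04 kb inside the gene, held 27.6 to 33.1 CPM in MDM, 21.7 to 24.8 in LL-MDM and 9.40 to 9.80 in LL-MG. In MG 1, 2 and 3 it held 10.0, 25.4 and 18.1. It was lower in MG (-0.68 ± 0.18, adjusted p = 0.00245; -1.58 with MG 1 alone, adjusted p = 5.43e-08) and lower in LL-MG than in LL-MDM (-1.26 ± 0.25, adjusted p = 0.000366). LL-MG against MG was -0.97 ± 0.25 (adjusted p = 0.0122), and -0.07 with MG 1 alone (adjusted p = 0.983). That call was lost as well without MG 2 or any 1 LL-MG library (adjusted p up to 0.182).

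At the Clec4e start (chr6:123289509-123290077, over the C/EBP match shown above), levels were 24.5, 19.9 and 27.5 CPM in MDM and 36.3, 25.2 and 26.7 in LL-MDM. They were 7.04, 18.7 and 14.6 in MG and 4.52, 4.23 and 5.08 in LL-MG. MG lay between the other microglia and MDM, and LL-MG was below all other libraries. The fall was -0.74 ± 0.21 in MG against MDM (adjusted p = 0.00383), -2.58 ± 0.30 in LL-MG against LL-MDM (adjusted p = 3.87e-07) and -1.61 ± 0.31 in LL-MG against MG (adjusted p = 0.00265). The interaction was -1.85 ± 0.38 (adjusted p = 0.00232). With MG 1 alone LL-MG against MG was -0.60 (adjusted p = 0.768) and the interaction -0.82 (adjusted p = 0.32), while MG against MDM was -1.73 (adjusted p = 2.27e-07).

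**Figure D4:**
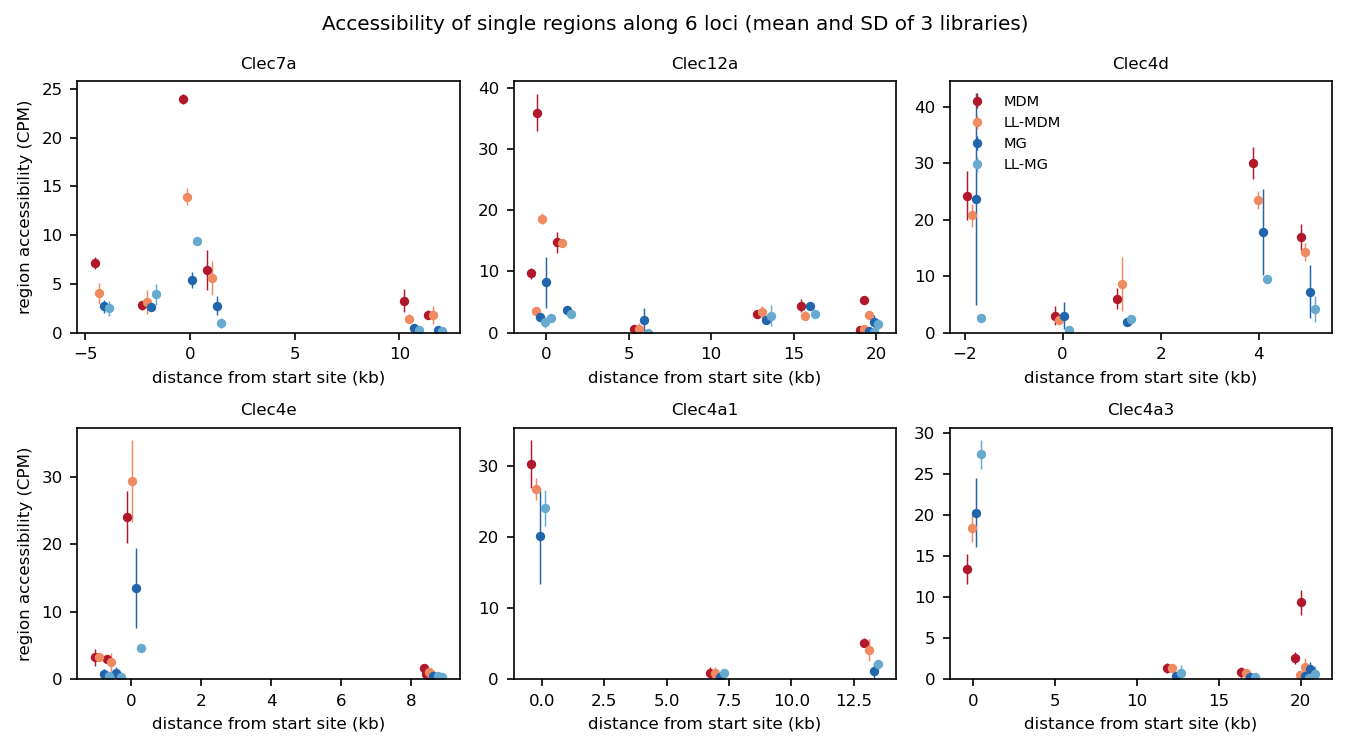
Mean accessibility (CPM, bars are the SD of 3 libraries) of each region of 6 loci against the distance of its midpoint from the start site in kb, positive into the gene; the 4 groups are drawn slightly side by side. In 5 of the 6 loci the highest region lies at the start site, and in Clec4d the MG bar before the start is the widest.

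Clec12a, the inhibitory receptor MICL, was ordered the same way as Clec4n. Its locus held 78.1, 64.5 and 65.8 CPM in MDM, 44.3, 42.1 and 44.4 in LL-MDM, 18.0, 25.0 and 19.8 in MG and 12.8, 14.6 and 14.2 in LL-MG. The 4 groups did not overlap. MG was 3.23-fold below MDM (-1.69 ± 0.12, adjusted p = 2.73e-10), and LL-MG 3.12-fold below LL-MDM (-1.64 ± 0.16, adjusted p = 3.71e-07). It was lower with lipid load in MDM (-0.68 ± 0.11, adjusted p = 0.000185) and in microglia (-0.64 ± 0.17, adjusted p = 0.0161), with an interaction of 0.05 ± 0.21 (adjusted p = 0.951). The interaction was 0.31 with MG 1 alone. The microglial call was lost without MG 2, LL-MG 1 or LL-MG 3 (adjusted p up to 0.14), and with MG 1 alone the difference was -0.38 (adjusted p = 0.748).

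The Clec12a start-site region (chr6:129349861-129350348, over the window with the AP-1 and C/EBP letters) held 39.3, 33.1 and 35.6 CPM in MDM and 17.7, 18.6 and 19.5 in LL-MDM. It held 4.08, 12.5 and 8.05 in MG and 1.81, 2.35 and 2.90 in LL-MG, again with no overlap of groups. It fell in MG (-2.02 ± 0.20), in LL-MG against LL-MDM (-2.96 ± 0.33), in LL-MDM (-0.94 ± 0.19) and in LL-MG against MG (-1.88 ± 0.36, adjusted p = 0.00204). The first was -3.14 with MG 1 alone (adjusted p = 4.9e-19) and -1.79 without it (adjusted p = 1.07e-15). The last was -0.76 with MG 1 alone (adjusted p = 0.777). The last also missed the threshold after thinning (-1.42, adjusted p = 0.0984).

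Beside the Clec12a start-site region, the region before it passed the edgeR test in LL-MDM against MDM and a region past it did not. Just before the start-site region, chr6:129349647-129349809 was at 8.80 to 10.7 CPM in MDM and 2.92 to 4.11 in LL-MDM (-1.52 ± 0.27, adjusted p = 7.22e-05). A region 1.08 kb past the start (chr6:129351199-129351454) was at 13.3 to 16.6 CPM in MDM and 14.2 to 15.1 in LL-MDM, a difference of -0.02 ± 0.20 (adjusted p = 0.954). That region was lower in MG (-1.97 ± 0.23) and in LL-MG against LL-MDM (-2.22 ± 0.29), at 3.17 to 4.46 CPM in MG and 2.26 to 3.76 in LL-MG. Whether the 2 regions' lipid-load differences differ from each other was not tested.

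Of the 3 DCIR genes none differed past the test in LL-MG against LL-MDM at the locus (Clec4a3, at 0.42, passed with MG 1 alone: 0.41, adjusted p = 0.0385). Clec4a2, the inhibitory DCIR1, passed no test in any comparison. It held 14.5, 12.6 and 13.8 CPM in MDM, 8.21, 14.1 and 13.8 in LL-MDM, 13.6, 8.93 and 9.67 in MG and 13.2, 15.5 and 12.1 in LL-MG, and all 4 groups overlapped. Its log2 fold change in LL-MG against MG was 0.38 (adjusted p = 0.238), and -0.01 with MG 1 alone. It was -0.39 ± 0.19 in MG against MDM (adjusted p = 0.117), 0.06 ± 0.23 in LL-MG against LL-MDM (adjusted p = 0.895) and -0.06 ± 0.20 in LL-MDM against MDM (adjusted p = 0.853). Leaving out MG 1 brought the first past the threshold (-0.54, adjusted p = 0.0248), and with MG 1 alone it was 0.01 (adjusted p = 0.99). Its only region (chr6:123122996-123123560) lies inside the gene and does not overlap the start-site window.

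Clec4a1, DCIR4, held 34.9, 31.5 and 35.2 CPM in MDM, 27.9, 30.5 and 29.7 in LL-MDM, 25.5, 11.1 and 19.6 in MG and 23.8, 29.7 and 23.8 in LL-MG. MG 2, the lowest for Clec4a1, was the highest MG library for Clec4d and Clec4e. MG was lower than MDM (-0.94 ± 0.19, adjusted p = 0.000504), but with MG 1 alone the difference was -0.40 and did not pass (adjusted p = 0.104). LL-MG against LL-MDM was -0.21 ± 0.22 (adjusted p = 0.541) and LL-MDM against MDM -0.18 ± 0.18 (adjusted p = 0.512). LL-MG against MG was 0.55 ± 0.22 (adjusted p = 0.0876) and the interaction 0.73 ± 0.29 (adjusted p = 0.123), and neither passed the edgeR test. Without MG 1 both passed (0.79, adjusted p = 0.00102, and 0.96, adjusted p = 0.00188). With MG 1 alone they were 0.01 and 0.18. The start-site region of Clec4a1 (chr6:122921422-122921931) was lower in MG as well (-0.64 ± 0.17, adjusted p = 0.00225), and -0.14 with MG 1 alone (adjusted p = 0.636).

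Clec4a3, DCIR3, had 2 regions that went opposite ways. The start-site region (chr6:122952303-122952817, shown above without a motif match) held 15.0, 13.9 and 11.5 CPM in MDM and 17.7, 20.3 and 17.1 in LL-MDM. It held 24.1, 15.8 and 21.0 in MG and 28.1, 25.4 and 28.7 in LL-MG, so that all LL-MG libraries were above all others. It was the only member region higher in MG than in MDM (0.54 ± 0.17, adjusted p = 0.00853), in LL-MG than in LL-MDM (0.55 ± 0.19, adjusted p = 0.0384) and in LL-MDM than in MDM (0.46 ± 0.18, adjusted p = 0.049). The first was 0.80 with MG 1 alone (adjusted p = 0.0023), but 0.14 after thinning (adjusted p = 0.774), and it did not pass without MG 1 or MDM 3. The second was lost without any 1 of the 6 lipid-laden libraries (adjusted p up to 0.14), and the third in 10 of 12 fits that left out a library. The third was also lost with RLE scaling (0.43, adjusted p = 0.066), total counts (0.47, adjusted p = 0.0627), no filter (0.48, adjusted p = 0.0501), DESeq2 (0.43, adjusted p = 0.127) and thinning (0.21, adjusted p = 0.695).

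The other region lies past the gene's end, 20.4 kb from the start (chr6:122972807-122973067). It held 8.69, 8.26 and 11.1 CPM in MDM, 2.66, 0.835 and 1.03 in LL-MDM, 2.22, 0.686 and 0.732 in MG and 0, 0 and 1.82 in LL-MG. Only the MDM libraries were high. It fell in MG (-3.11 ± 0.41, adjusted p = 2.08e-07) and in LL-MDM (-3.05 ± 0.43, adjusted p = 3.67e-06), with LL-MG against LL-MDM at -0.63 ± 0.84 (adjusted p = 0.658). The fall in MG was -2.02 with MG 1 alone (adjusted p = 0.000447) and -3.68 without MG 1 (adjusted p = 1.15e-12).

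Because the 2 regions are summed, the Clec4a3 locus value depends on the flank. The locus held 27.3, 25.5 and 24.7 CPM in MDM, 21.3, 22.1 and 18.8 in LL-MDM, 25.5, 13.9 and 19.1 in MG and 26.8, 27.0 and 29.7 in LL-MG. It was lower in MG than in MDM (-0.47 ± 0.16, adjusted p = 0.0223), but 0.23 with the gene span alone (adjusted p = 0.333) and -0.03 with MG 1 alone (adjusted p = 0.939). It was higher in LL-MG than in MG (0.58 ± 0.18, adjusted p = 0.0333). With MG 1 alone that difference was 0.13 (adjusted p = 0.931), and the call was lost without MG 2, MG 3 or any 1 LL-MG library. The interaction (0.89 ± 0.25, adjusted p = 0.0269) was lost in 10 of 12 fits that left out a library, was 0.44 with MG 1 alone (adjusted p = 0.376) and was 0.25 with the gene span alone (adjusted p = 0.616). The call against MDM was also lost without MDM 1, MDM 2, MG 2 or MG 3 (adjusted p up to 0.207).

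The regions nearest to the members but outside the 5 kb limit varied in level. The nearest to Clec4n, 5697 bp away, held a mean of 18.5 CPM in MDM, 19.7 in LL-MDM, 12.6 in MG and 8.95 in LL-MG. The nearest to Clec7a, 9637 bp away, held 1.41, 1.15, 1.43 and 0.917 CPM in the same order. The last member region inside the limit at Clec7a, past the gene's end, held 1.84 CPM in MDM and 0.157 in LL-MG.

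Other lectin genes in the same 2 clusters moved with the members in MG. Of 9 such genes 8 were tested, and 7 were lower in MG than in MDM with none higher (beside 21.2% and 19.8% of all loci), at a median of -0.98. The largest differences were at Clec4b1 (DCAR, an activating relative of DCIR; -3.30 ± 0.55) and Clec4a4 (DCIR2; -1.97 ± 0.19). Clec2d, which encodes a ligand of an NK cell receptor, was at -1.29 ± 0.12. Olr1, the oxidised LDL receptor LOX-1, which shares 2 regions with Clec7a, was at -1.21 ± 0.10. Clec1a (-0.74 ± 0.13), Clec9a (-0.66 ± 0.14) and Clec12b (-0.42 ± 0.12) followed, and Clec1b was -0.26 ± 0.15 and did not pass. Clec4b2 held too few counts to be tested.

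Among lipid-laden cells only Olr1 of these was lower in LL-MG (-0.75 ± 0.13, adjusted p = 0.000248), 1 of 8 beside 8.32% of all loci. In LL-MDM against MDM 6 of 8 were lower, beside 12.2% of all loci: Clec4b1 (-1.20 ± 0.44), Clec4a4 (-1.05 ± 0.18), Clec2d (-0.84 ± 0.13), Clec9a (-0.52 ± 0.15), Clec1a (-0.51 ± 0.13) and Olr1 (-0.46 ± 0.10). None of the 8 passed in LL-MG against MG. The interaction passed the test above 0 for Clec4a4 (1.44 ± 0.31), Clec2d (1.02 ± 0.20) and Clec9a (0.73 ± 0.23), 3 of 8 beside 5.94% of all loci.

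C-type lectin genes on other parts of the genome included 14 chosen genes, of which Clec4f and Clec14a had no region. Of the 12 tested, 9 were lower and 2 higher in MG than in MDM, beside 21.2% and 19.8% of all loci. In LL-MG against LL-MDM 4 were lower and 1 higher, beside 8.32% and 12% of all loci. Their summed level was 355.8 to 370.2 CPM in MDM, 314.1 to 322.3 in LL-MDM, 207.0 to 215.7 in MG and 230.3 to 235.4 in LL-MG. These ranges do not overlap.

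Of 18 signalling genes of the pathway from the gamma chain to NF-kB, 5 were lower and 2 higher in MG than in MDM, with a median of -0.16. These counts are near the 21.2% lower and 19.8% higher of all loci or below them, and are no result about the list. Malt1 (-0.75 ± 0.09) and Syk (-0.65 ± 0.08), the paracaspase and the kinase of the pathway, were lower, as were the ubiquitin ligase Traf6 (-0.74 ± 0.10) and the lipid phosphatase Inpp5d (-0.39 ± 0.09). Fcer1g, which encodes the gamma chain that Clec4n, Clec4d and Clec4e need, was higher (0.42 ± 0.08, adjusted p = 0.000225), and so was the phosphatase gene Ptpn11 (0.26 ± 0.10, adjusted p = 0.0436). The Clec4n and Clec4e loci and that of their shared adaptor thus differed in opposite directions in MG.

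In LL-MG against LL-MDM, Malt1 (-0.49 ± 0.09), Syk (-0.33 ± 0.09) and Bcl10 (-0.26 ± 0.09), a partner of Card9, were lower and Nfatc2 (0.36 ± 0.08) was higher, 3 and 1 of 18 beside 8.32% and 12% of all loci. Fcer1g was 0.22 ± 0.09 there and did not pass (adjusted p = 0.0997). In LL-MDM against MDM Traf6 alone passed (-0.34 ± 0.10, adjusted p = 0.0176), where 12.2% of all loci were lower. In LL-MG against MG, Syk (0.36 ± 0.09), Nfatc2 (0.29 ± 0.08) and the kinase gene Prkcd (0.28 ± 0.09) were higher (3 of 18, beside 10.3% of all loci) and none was lower. Card9 was 0.11 ± 0.10 (adjusted p = 0.429). The interaction passed for Traf6 (0.62 ± 0.16, adjusted p = 0.0172).

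Of 9 cytokine and effector genes that these receptors are known to induce, 2 were higher and 3 lower in MG than in MDM (19.8% and 21.2% of all loci), at a median of 0.07. In LL-MG against LL-MDM 1 was higher and 1 lower (12% and 8.32% of all loci), and in LL-MDM against MDM 1 was lower (12.2%). In LL-MG against MG 2 were higher and 1 lower (10.3% and 7.98% of all loci). With 9 genes, 1 or 2 calls are near these shares. Their summed level overlapped between all 4 groups, at 728.8 to 820.3 CPM in MDM, 744.5 to 823.8 in LL-MDM, 692.4 to 915.6 in MG and 737.2 to 799.9 in LL-MG.

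The genes whose locus levels were most like each member over the 12 libraries were named by the Pearson correlation of log2 CPM, among 15539 genes that share no region with a member. All 12 libraries share the group structure and differ in depth, so these values only describe likeness. For Clec12a they were Plbd1 (r = 0.992) and Antxr2 (0.988), for Clec7a Ltbp2 and Mob3b (both 0.984), and for Clec4n Nr1h4 and Ist1 (both 0.979). For Clec4d they were Emb and Moxd2 (both 0.983) and for Clec4e Gda (0.981) and Ms4a15 (0.980). For the DCIR genes they were Fmnl2 and Plekha1 (both 0.967 with Clec4a1), Vps45 and Il13ra1 (0.907 and 0.893 with Clec4a2), and Ccl5 and F11r (0.955 and 0.947 with Clec4a3). The likeness was thus lowest for Clec4a2, the flattest locus.

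Among the members themselves, r over the 12 libraries was 0.97 between Clec12a and Clec4n, 0.96 between Clec4d and Clec4e, and 0.91 between Clec7a and Clec4n. Clec4d and Clec4a3, which lie in the same cluster but are not neighbours, had r = -0.47, and Clec4a1 and Clec4d 0.09. Genes of 1 cluster therefore did not all follow each other.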

How the data were processed

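ATAC-seq counts of 12 libraries in 117835 regions were used as whole-number counts, as deposited by the authors. Per the labels' protocols, nuclei of sorted cells were tagmented with Tn5, and the DNA had 2 rounds of PCR with 9 cycles each. Tools named in the submitters' processing notes, with no role or order, are deepTools 3.5.1, Picard 2.12.0, SAMtools 1.10 and BWA 0.7.17-r1188, and the build is mm10. No peak caller, counter, duplicate handling or transposase shift is given in the sources used here. Per the region identifiers, peaks of the 4 groups were merged into 1 set. Libraries were grouped by name, and every count column had a sample (0 unmapped).

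Genes were RefSeq protein-coding spans (GRCm38.p6), and a region was assigned to each gene it lay within 5 kb of. The table holds no exons, so regions were not placed in exons, introns or UTRs. Region and locus counts were fitted separately with edgeR 4.0.16 in R 4.3.3: filterByExpr, TMM scaling, 1 quasi-likelihood model (robust) over 4 groups, and Benjamini-Hochberg adjustment over the 77737 regions or 15548 loci tested, with a threshold of 0.05. Levels are CPM on TMM-scaled totals, errors of fold changes are standard errors, and correlations used a prior count of 2. Counts do not separate PCR copies from fragments, so tests rest on the spread between libraries. The fits were tested on simulated data.

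Named regions were each member's highest by mean CPM and, per comparison and direction, up to 3 called ones by p whose absolute log2 fold change was 1 or more and whose groups did not overlap. The other regions described (the inner and shared regions of Clec7a, for example), and the marker genes Sall1 and Ccr2, were chosen after their values were seen. From the signalling list up to 4 genes per direction were named by p, with Fcer1g and Card9 given also where they did not pass. For likeness, 2 genes were named per member. The members, the 14 lists and the comparisons were chosen with earlier results of these data known. Alternatives were RLE scaling, total counts, no filter, DESeq2 1.42.0, thinning to the smallest total, groups by title, each library left out, the gene span alone and regions of 1 gene only. MG 1 as the only MG library and a replicate block, by runs of 4 library numbers or by the mouse number of the title, were added after seeing the data.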

Additional observations from a re-analysis of the deposited data

Results flagged for a closer look

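The lipid-load difference differed between microglia and MDM, by the edgeR test of the interaction, at 4 places. It was higher in microglia at the Clec7a locus (1.04 ± 0.22 on the log2 scale, adjusted p = 0.00496), at the Clec7a start-site region (1.56 ± 0.30, adjusted p = 0.00103) and at the Clec4a3 locus (0.89 ± 0.25, adjusted p = 0.0269). It was lower in microglia at the Clec4e start-site region (-1.85 ± 0.38, adjusted p = 0.00232). Both Clec7a values passed in all 12 fits that left out a library, with adjusted p up to 0.0317 for the locus and 0.00589 for the region. The Clec4e value passed in these 12 fits too (-1.50 to -2.03), but was -0.82 with MG 1 as the only MG library (adjusted p = 0.32). The Clec4a3 value passed in 2 of the 12.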

How the results depend on the processing

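The titles name other groups than the library names for 8 samples. With groups by title, edgeR called 0 members in both lineage comparisons and the interaction, in regions and loci alike (0 also by unadjusted p). It called 13 regions in LL-MDM against MDM and 3 in LL-MG against MG. By title, each lineage comparison sets libraries named for the same lineage against each other. The lipid-load comparisons by title set libraries named for microglia against libraries named for MDM. Thinning left 11 member regions testable, with 7 called in each lineage comparison, 3 in LL-MDM against MDM and 2 in LL-MG against MG, and 1 locus in the interaction. With MG 1 as the only MG library, its spread is taken from the other groups. No region or locus was then called in LL-MG against MG (0 of each; 3 regions and 0 loci at an unadjusted p under 0.05), 11 regions were called in LL-MDM against MDM, and 1 region and 1 locus in the interaction. DESeq2 with all libraries called 4 loci in LL-MG against MG. RLE scaling, total counts, no filter and the gene span alone kept the total of calls in both directions within 1.5 times. By direction, the gene span alone left 11 of 17 regions lower in MG against MDM, and the 1 region higher in LL-MDM against MDM (Clec4a3) was lost with RLE, total counts, no filter, DESeq2 and thinning.

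Leaving out 1 library gave 16 to 21 called regions in MG against MDM, 7 to 14 in LL-MG against LL-MDM, 5 to 13 in LL-MDM against MDM, 2 to 10 in LL-MG against MG and 2 to 8 in the interaction. The loci ran from 5 to 8, 4 to 5, 3 to 3, 0 to 5 and 1 to 5 in the same order. The upper ends of 13, 10 and 8 regions and of 5 loci in each of the last 2 came without MG 1, and 14 without MG 1 or MG 2. Without MG 2, 11 regions were called in LL-MDM against MDM and 3 in LL-MG against MG. The 0 came without MG 2, LL-MG 1 or LL-MG 3.

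Differences that changed sign were uncalled but for Clec4a3 in MG against MDM, and the cause was not tested. The Clec12a interaction (0.05) was -0.37 thinned, -0.15 with the gene span alone, -0.03 with regions of 1 gene only and -0.05 to 0.23 without 1 library. Clec4a2 was 0.01 in MG against MDM and -0.01 in LL-MG against MG with MG 1 alone. It was 0.31 thinned in LL-MDM against MDM, and without 1 library ran from -0.20 to 0.05 there and from -0.05 to 0.19 in LL-MG against LL-MDM. With the gene span alone Clec4a3 was 0.23 in MG against MDM and 0.36 in LL-MDM against MDM. The Clec4d interaction (-1.12) was 0.23 with MG 1 alone. Clec4e in LL-MDM against MDM was -0.08 thinned and -0.03 to 0.21 without 1 library. Of 1476 alternative values of 70 single results, 1326 kept their direction and side of the threshold, 113 lost the call, 19 gained it and 18 changed sign. The groups by title are not among these values. Single regions entered only where the main fit called them, so that they could lose a call but not gain it.

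Scaling by total counts moved the median of all regions in LL-MG against MG from 0.00 to 0.11. The library numbers fall into 3 runs of 4 with 1 library of each group, but no label says that a run shares an animal. Libraries of a run deviated from their group means with r = -0.06 to 0.10 (median 0.03 over 18 pairs), and 8 of 12 were most like a library of their own run. With the run as a replicate block, the calls were 18, 11, 7, 5 and 2 regions and 6, 5, 3, 3 and 2 loci, and the Clec4a3 start site lost its call in LL-MG against LL-MDM (0.52, adjusted p = 0.0565). With the mouse number of the titles as the block (r = -0.06 to 0.08 over 14 pairs), mouse number and lipid load by library name largely coincide. LL-MDM against MDM then kept 1 region and 1 locus, LL-MG against MG 0 of each, and the interaction 2 regions and 1 locus. At 1162969 counts in the smallest library, 1 CPM is about 1 count, which limits the weak regions.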
